A study of Rattus norvegicus with 24 samples.

Results

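The 10 genes described here encode secreted matrix proteins of fibroblasts and of the meninges, the connective tissue sheets around the brain: Dcn, Lum, Serpinf1, Ccdc80, Fstl1, Pcolce, Eln, Dpt, Aebp1 and Ctgf. Collagens were left out of the set. The genes were chosen by name and matched by symbol in the deposited table, where all 10 of 10 were found among 12187 genes, and all 10 passed the filter on low values that left 11823 genes for testing. The study profiled what vitamin C changes in gene expression and DNA modification when rat neural stem cells differentiate. Its RNA-seq libraries came from Sprague-Dawley cells in 3 groups of 2: cells differentiated with vitamin C (VC+), cells differentiated without it (VC-), and the undifferentiated neural stem cells (D0). In VC+ and VC- alike the replicate 2 library carries a day 5 label and the replicate 1 library a day 4 label. The labels do not state whether the replicates were separate cultures or animals; the p-values therefore reflect only how these libraries vary, which may be technical. The other 18 samples, of DNA methylation, hydroxymethylation and factor binding assays, were not used here.

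Fibroblasts of the meninges and of vessel walls lay down fibrillar collagen together with proteins that trim, space and cross-link the fibrils. Decorin and lumican, the products of Dcn and Lum, are small leucine-rich proteoglycans that bind collagen fibrils and limit their thickness. Neural stem cells and glia make a different, laminin- and lectican-rich matrix, so this gene set is commonly read as a mark of mesenchymal cells in a neural culture. Its genes are nevertheless not all exclusive to fibroblasts, and Fstl1 and Ctgf are also made by astrocytes.

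The replicate 2 libraries held far more of these transcripts than the replicate 1 libraries, in every group. The summed expression of the 10 genes was 1269 CPM (read counts that the authors scaled to library depth) in replicate 2 and 102 CPM in replicate 1 of VC+. It was 1425 and 109 CPM in VC-, and 1974 and 179 CPM in D0. Fitted over the 3 groups with a term for replicate number (limma on log2(CPM + 0.5), Benjamini-Hochberg over 11823 genes), 9 of the 10 genes were called higher in replicate 2 at an adjusted p under 0.05, and 0 lower. Over all genes tested 17.4% were called higher and 7.70% lower. Dpt was the exception. The fit takes the 3 groups as independent measures of the replicate difference, which the labels do not establish. If libraries of 1 replicate number share an origin, these p-values may be too small. Serpinf1 reached the filter's 1 CPM in only 1 of the 3 replicate 1 libraries, so it was tested through its replicate 2 values. The higher fibroblast signal of replicate 2 was already known from an earlier account of these libraries when the genes were chosen, so the count describes the set and is not independent evidence. In bulk RNA, more cells of a type and more RNA per cell cannot be told apart.

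**Figure D1:**
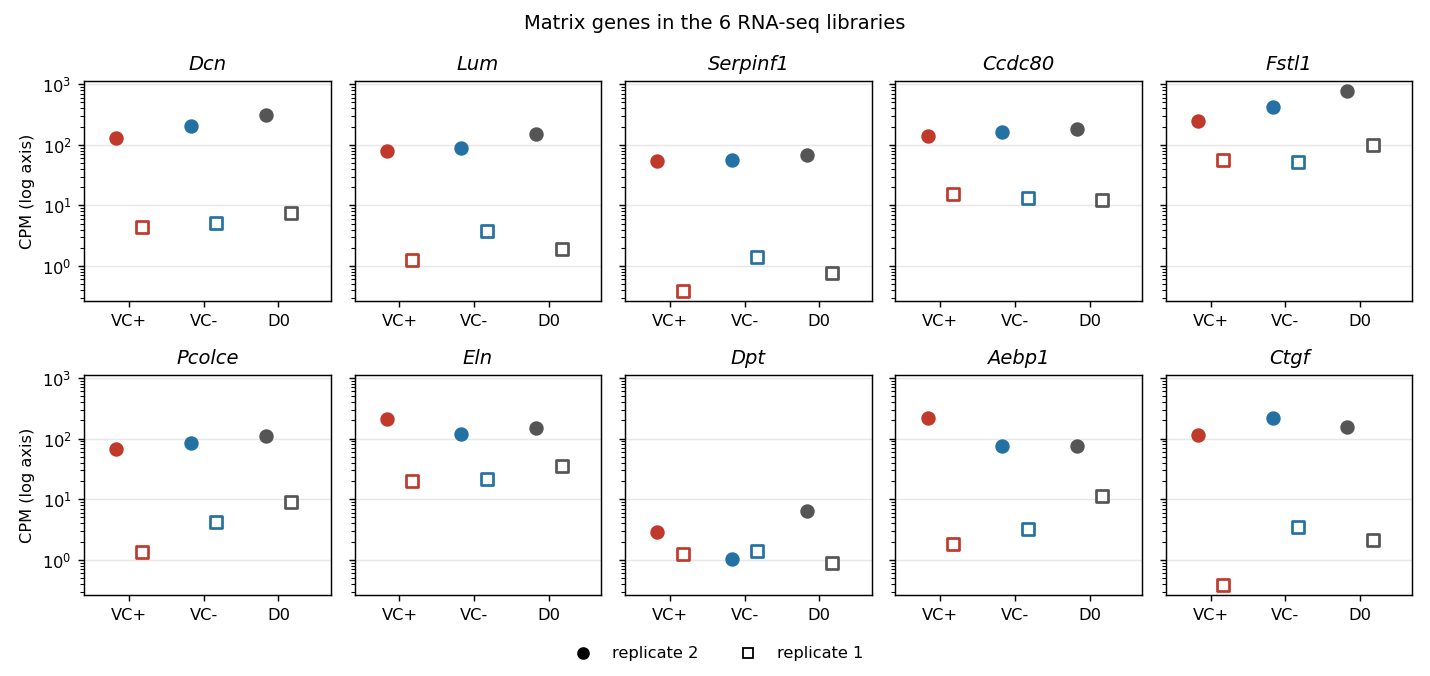
CPM of the 10 matrix genes (log axis, 1 panel a gene) in VC+, VC- and D0 cells; each point is 1 library, filled circles replicate 2 and open squares replicate 1. For 9 of the 10 genes every replicate 2 library lies above every replicate 1 library, as for 24.2% of all genes tested; Dpt overlaps.

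Among the proteoglycans and the proteins that bind them, Dcn stood at 130.2 CPM in replicate 2 and 4.40 CPM in replicate 1 of VC+, at 202 and 5.12 CPM in VC-, and at 305 and 7.57 CPM in D0. All 3 replicate 2 libraries were thus above 100 CPM and all 3 replicate 1 libraries below 10 CPM. The log2 difference between the replicates was 5.05 (SE 0.17, adjusted p 0.00151, limma), and by groups it spanned only 4.74 to 5.24. Lum, whose gene lies next to Dcn in the RefSeq gene table, stood at 78.3 and 1.24 CPM in replicates 2 and 1 of VC+. It stood at 88.1 and 3.84 CPM in VC- and at 151 and 1.89 CPM in D0, a log2 difference of 5.28 (SE 0.35, adjusted p 0.00324, limma). Dpt encodes dermatopontin, a small matrix protein that binds decorin. It had the lowest values of the set in the replicate 2 libraries, with 2.86 and 1.24 CPM in VC+, 1.02 and 1.40 CPM in VC-, and 6.31 and 0.883 CPM in D0, again replicate 2 before replicate 1. The Dpt libraries of the replicates overlapped, and its log2 difference of 0.98 (SE 0.56) did not pass (adjusted p 0.241, limma).

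Genes for fibril and elastic fibre assembly showed the same split with different sizes. Pcolce, which enhances the cleavage of procollagen C-propeptides, stood at 66.7 CPM in replicate 2 and 1.34 CPM in replicate 1 of VC+, at 83.8 and 4.19 CPM in VC-, and at 109 and 8.83 CPM in D0. Aebp1 encodes a secreted carboxypeptidase-like protein that binds collagen. It stood at 221 and 1.82 CPM in VC+, at 74.5 and 3.26 CPM in VC-, and at 75.8 and 11.1 CPM in D0. The Aebp1 gap between replicates was the most uneven of the set, with log2 differences of 6.58 in VC+, 4.32 in VC- and 2.72 in D0. Eln, the gene for tropoelastin, stood at 209 and 20.1 CPM in VC+, at 120.2 and 21.9 CPM in VC-, and at 147 and 35.9 CPM in D0. All 3 genes were called, with log2 differences of 4.31 (SE 0.34) for Pcolce, 4.54 (SE 0.73) for Aebp1 and 2.60 (SE 0.28) for Eln (adjusted p 0.00387, 0.0162 and 0.00656, limma).

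The remaining 4 genes encode secreted factors. Ctgf, a matricellular protein of the CCN family and a classical target of YAP and TGF beta signalling, had the largest log2 difference of the 10, 6.24 (SE 0.30, adjusted p 0.00182, limma). Its values in replicates 2 and 1 were 116 and 0.383 CPM in VC+, 221 and 3.49 CPM in VC-, and 156 and 2.14 CPM in D0. Serpinf1 encodes pigment epithelium-derived factor, a serpin that restrains vessel growth. It stood at 55.1 and 0.383 CPM in VC+, at 56.7 and 1.40 CPM in VC-, and at 68.1 and 0.757 CPM in D0, a log2 difference of 5.55 (SE 0.29, adjusted p 0.00224, limma). Serpinf1 and Ctgf each rested on 4 reads in replicate 1 of VC+, so their read ratios there are wide. For Ctgf the ratio of replicate 2 to replicate 1 was 302 (exact 95% interval 118 to 1111) and for Serpinf1 it was 144 (56.0 to 529), intervals that cover read counting in 1 library against 1 and nothing else.

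Fstl1 and Ccdc80 were the secreted factors with clear expression in replicate 1 as well. Fstl1, a glycoprotein of the SPARC family that can bind BMP ligands, stood at 252 and 55.1 CPM in VC+, at 415 and 51.3 CPM in VC-, and at 771 and 97.6 CPM in D0, replicate 2 before replicate 1. Ccdc80, a secreted protein deposited in the matrix, stood at 138 and 15.7 CPM in VC+, at 161 and 13.1 CPM in VC-, and at 184 and 12.4 CPM in D0. Their log2 differences were 2.72 (SE 0.21) and 3.50 (SE 0.18), with adjusted p of 0.00374 and 0.00224 (limma). Together with Eln these genes had at least 98 reads in every library, and their differences were the smallest of the 9 called. On the log2(CPM + 0.5) scale, 9 of the 10 genes were at least 4-fold higher in replicate 2 in all 3 groups, against 5.21% of all genes tested.

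**Figure D2:**
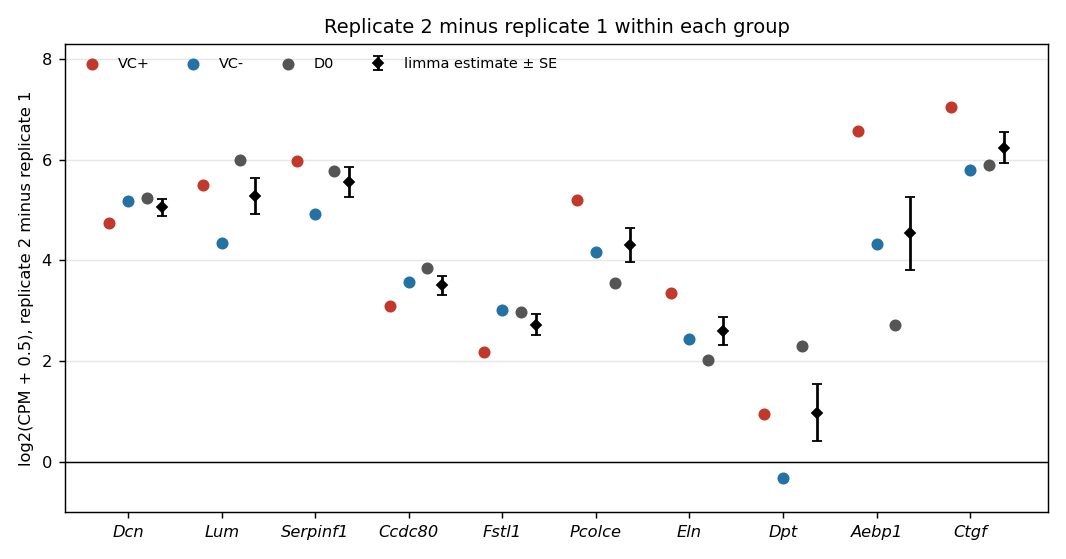
Difference in log2(CPM + 0.5) between replicate 2 and replicate 1 for each matrix gene; coloured points are the single differences in VC+, VC- and D0, and black diamonds the limma estimate with its SE. Estimates run from 0.98 for Dpt to 6.24 for Ctgf, and the 3 groups lie farthest apart for Aebp1.

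How many genes were called depended on each library. Without replicate 2 or 1 of VC+ limma called 707 and 726 genes, and without those of D0 5098 and 4963, with all 9 matrix genes among them each time. Without replicate 2 of VC- limma called 0 of 11823 genes (2827 at an unadjusted p under 0.05), with adjusted p of 0.0568 to 0.113 for the 9 genes, and without replicate 1 of VC- it called 58 genes, among them Dcn, Lum, Serpinf1 and Ctgf (0.0393 each). Without either VC- library the log2 difference was 4.99 for Dcn and 6.46 for Ctgf, since the remaining pairs are those of VC+ and D0.

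Promoter sequences were looked at because these genes differed together between the replicate sets. RefSeq promoters of build GRCr8 were matched for 8 of the 10 genes; those for Dcn and Eln were not used here. The 250 bases before the start are shown for Ctgf, which had the largest difference between replicates, for Aebp1, whose difference between replicates varied most among the groups, and for Dpt, the gene that was not called. They lie at chr1:22624615-22624864 (minus strand), chr14:84952604-84952853 (plus strand) and chr13:79656091-79656340 (plus strand). Capitals mark the letters TATAAA, the core of a TATA box, and GGAATG, a core bound by TEAD factors, the DNA-binding partners of YAP.
Ctgf: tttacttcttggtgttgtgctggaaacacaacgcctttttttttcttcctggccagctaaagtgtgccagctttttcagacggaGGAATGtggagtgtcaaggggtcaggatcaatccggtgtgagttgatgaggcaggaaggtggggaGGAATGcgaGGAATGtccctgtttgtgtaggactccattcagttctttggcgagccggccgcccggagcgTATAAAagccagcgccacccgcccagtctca
Aebp1: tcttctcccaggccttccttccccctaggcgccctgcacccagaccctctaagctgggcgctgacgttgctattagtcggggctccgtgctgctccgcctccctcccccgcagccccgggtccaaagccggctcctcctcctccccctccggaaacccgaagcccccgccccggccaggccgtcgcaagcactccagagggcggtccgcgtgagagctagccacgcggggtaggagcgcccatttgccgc
Dpt: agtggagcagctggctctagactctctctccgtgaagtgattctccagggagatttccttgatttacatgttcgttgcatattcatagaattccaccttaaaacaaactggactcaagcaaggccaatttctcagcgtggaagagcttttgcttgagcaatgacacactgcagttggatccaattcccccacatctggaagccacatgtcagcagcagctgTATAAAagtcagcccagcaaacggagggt
Motifs were searched on both strands, and no match overlapped another in the 8 windows. GGAATG occurred 3 times before Ctgf and in 0 of the other 7 matched genes, while 12.1% of 33469 rat promoter windows of this length hold it at least once and 0.0807% at least 3 times. TATAAA occurred before Ctgf and Dpt, and in 12.9% of all windows. TGANTCA, the AP-1 core, occurred before 0 of the 8 genes and in 6.34% of all windows. GGGCGG, an SP1 core, occurred before Fstl1, Pcolce, Aebp1 and Ctgf and in 30.5% of all windows. A match is a description of letters, not a binding site, and a missing match says nothing of a factor.

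Vitamin C went with lower values of 5 matrix genes in both replicate sets, and with values of opposite direction for the other 5, but no difference passed the test. Ctgf, Pcolce, Lum, Serpinf1 and Dcn were lower in VC+ than in VC- in both sets. Over all genes tested 26.4% were lower in both. None of the 10 was higher in both, against 30.0% of all genes. Limma called 0 of the 10 genes and 0% of all genes tested (62 of 11823, or 0.524%, at an unadjusted p under 0.05). EdgeR called 0 genes and DESeq2 6 (0.0492%), none of them a matrix gene. VC+ and VC- libraries of 1 number share a day label, and with the replicate number as a block limma called 0 genes (404, or 3.42%, unadjusted) and DESeq2 32 (0.263%), again with none of the 10 among them. The median log2 difference of the 10 genes was -0.36, beside 0.02 for all genes tested. With 2 libraries against 2, the replicate difference enters the error: SEs ran from 0.94 for Dpt to 3.41 for Ctgf, so a missing call does not show that the genes were unchanged.

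Ctgf had the largest of these differences, -0.93 in replicate 2 and -2.18 in replicate 1 (limma -1.55, SE 3.41; SE 0.37 with the replicate block, adjusted p 1.00). By reads, its VC+ over VC- ratio was 0.523 in replicate 2 (exact 95% interval 0.498 to 0.550) and 0.110 in replicate 1 (0.0281 to 0.311). Pcolce had ratios of 0.796 (0.740 to 0.856) and 0.320 (0.160 to 0.608), replicate 2 before replicate 1. Both genes were thus below VC- in each set by more than counting error. Lum had ratios of 0.889 (0.830 to 0.952) and 0.324 (0.157 to 0.633), and Dcn of 0.644 (0.613 to 0.677) and 0.860 (0.557 to 1.33). For Dcn the replicate 1 interval includes 1, as does the replicate 2 interval of Serpinf1, whose ratio there was 0.971 (0.892 to 1.06). These intervals cover read counting only and say nothing of the spread between replicates.

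Aebp1, Eln and Dpt went the other way in replicate 2 alone. Aebp1 stood at 221 CPM in VC+ and 74.5 CPM in VC- of replicate 2, a ratio of 2.96 (exact 95% interval 2.79 to 3.15), and at 1.82 and 3.26 CPM in replicate 1, a ratio of 0.559 (0.295 to 1.04). Eln had a ratio of 1.74 (1.65 to 1.83) in replicate 2 and 0.919 (0.752 to 1.12) in replicate 1. For Dpt the ratios were 2.80 (1.65 to 4.96) and 0.892 (0.375 to 2.14), on at most 61 reads a library. Higher in replicate 2 and lower in replicate 1 was the pattern of 22.1% of all genes tested, so 3 of 10 is near that background. Fstl1 and Ccdc80 had the reverse pattern, lower in replicate 2 and higher in replicate 1, as did 20.0% of all genes. Fstl1 had ratios of 0.605 (0.585 to 0.627) and 1.08 (0.948 to 1.22), and Ccdc80 of 0.857 (0.815 to 0.902) and 1.19 (0.934 to 1.53), so both replicate 1 intervals include 1.

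Markers of other cell types had unequal values in the same libraries. Of 8 astrocyte markers 7 were higher in VC+ than in VC- in both replicate sets, against 30.0% of all genes, with sums of 11817 and 8164 CPM in replicates 2 and 1 of VC+ and 6748 and 2157 CPM in VC-. Limma called none of them, and DESeq2 with the replicate block, which called 0.263% of all genes, called Gfap and Aldh1l1 higher (adjusted p 0.0488 and 0.0266). Of 19 fibroblast and meningeal identity markers 9 were lower in VC+ in both sets, against 26.4% of all genes, and 3 higher. However, 9 of the 19 passed the filter only with the help of replicate 2. In replicate 1, 2 of the 19 were at 0 in VC+ and 4 in VC-, so directions there rest on few reads. Microglia markers summed to 646 and 5.26 CPM in VC+ and 828 and 4.77 CPM in VC-. Their part in the differences of the matrix genes was not tested.

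**Figure D3:**
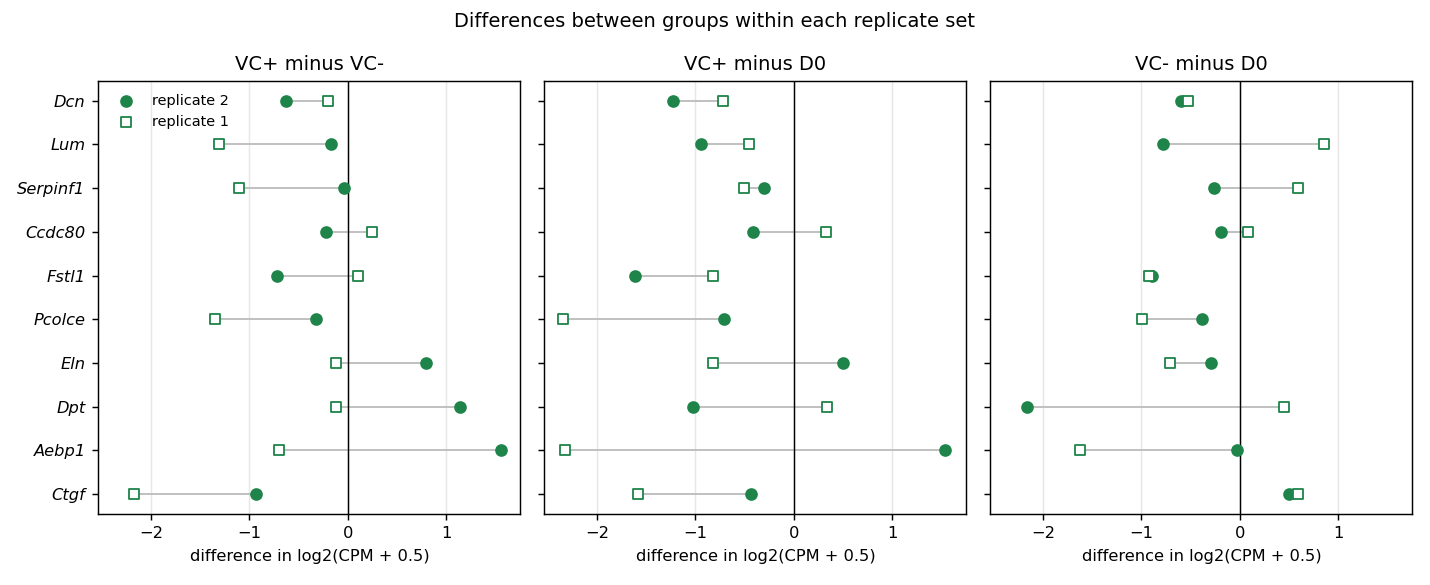
Differences in log2(CPM + 0.5) between groups within replicate 2 (filled circles) and replicate 1 (open squares), 1 row a gene, for VC+ minus VC-, VC+ minus D0 and VC- minus D0. In VC+ minus VC- 5 genes lie left of 0 in both sets, and Aebp1 reaches 1.56 in replicate 2 and -0.70 in replicate 1.

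Compared with the stem cells, most matrix genes were lower after differentiation with vitamin C. Limma, edgeR and DESeq2 called none of them without the replicate number as a block. With the block DESeq2 called 3 and limma 0, and edgeR was not run. Dcn, Lum, Serpinf1, Fstl1, Pcolce and Ctgf were lower in VC+ than in D0 in both replicate sets, 6 of 10 genes, against 29.0% of all genes tested. In replicate 1 the read intervals include 1 for Lum (13 against 15 reads, 0.288 to 1.48) and Serpinf1 (4 against 6 reads, 0.105 to 2.13). The median log2 difference of the 10 genes was -0.55, beside 0.01 for all genes. Fstl1 stood at 252 CPM in VC+ and 771 CPM in D0 of replicate 2, and at 55.1 and 97.6 CPM in replicate 1, which gives read ratios of 0.326 (exact 95% interval 0.316 to 0.337) and 0.565 (0.506 to 0.630). Pcolce had ratios of 0.611 (0.569 to 0.656) and 0.152 (0.0789 to 0.272). Ccdc80, Eln, Dpt and Aebp1 differed in direction between the sets, Aebp1 with ratios of 2.91 (2.73 to 3.11) in replicate 2 and 0.164 (0.0942 to 0.271) in replicate 1. The replicate 1 intervals of Ccdc80 (0.983 to 1.65) and Dpt (0.52 to 4.17) include 1. Limma called 0 of the 10 genes and 0% of all genes (507, or 4.29%, at an unadjusted p under 0.05), edgeR called 0 genes and DESeq2 133 (1.09%), none of them a matrix gene. With the replicate number as a block, which for D0 is a shared number and no known pairing, DESeq2 called 768 genes (6.43%) and 2.90% of all genes lower, among them Dcn, Fstl1 and Pcolce, while limma called 0.

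Cells differentiated without vitamin C were set against the same D0 libraries. Dcn, Fstl1, Pcolce, Eln and Aebp1 were lower in VC- than in D0 in both sets, 5 of 10 genes against 29.5% of all genes tested. For 2 of these the read interval includes 1 in 1 set, Dcn in replicate 1 (0.4475 to 1.014) and Aebp1 in replicate 2 (0.9085 to 1.064). Ctgf alone was higher in both, against 28.6% of all genes, with read ratios of 1.42 (exact 95% interval 1.35 to 1.49) in replicate 2 and 1.63 (0.869 to 3.14) in replicate 1. Fstl1 had ratios of 0.539 (0.523 to 0.554) and 0.525 (0.466 to 0.591), nearly equal in the replicate sets. Lum, Serpinf1, Ccdc80 and Dpt differed in direction, below D0 in replicate 2 and above it in replicate 1. The replicate 1 intervals of Serpinf1 (0.640 to 5.99), Ccdc80 (0.804 to 1.41) and Dpt (0.574 to 4.74) include 1. The median log2 difference was -0.53, beside 0.01 for all genes. Limma called 0 of the 10 genes and 0% of all genes (382, or 3.23%, at an unadjusted p under 0.05). EdgeR called 0 genes, DESeq2 63 (0.549%) and DESeq2 with the block 455 (3.88%), none of them a matrix gene. Within replicate 2, 6 genes (Dcn, Lum, Serpinf1, Ccdc80, Fstl1 and Pcolce) had VC+ below VC- and VC- below D0, an order that 23.2% of all genes showed. Within replicate 1, 4 genes had it (Dcn, Pcolce, Eln and Aebp1), against 18.6% of all genes, and only Dcn and Pcolce are in both. These orders rest in part on steps within counting error. The VC+ over VC- interval includes 1 for Serpinf1 in replicate 2 (0.892 to 1.06). In replicate 1 it does so for Dcn (0.557 to 1.33), Eln (0.752 to 1.125) and Aebp1 (0.295 to 1.04).

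The make-up of the set therefore differed between libraries. Each gene's share of the summed CPM of the 10 genes depends on transcript length, so shares are compared across libraries and not between genes. Aebp1 took 17.4% in replicate 2 of VC+, against 5.23% in VC- and 3.84% in D0. In replicate 1 its share was 1.79%, 2.99% and 6.20% in the same order of groups. Fstl1 took 19.8%, 29.2% and 39.1% in replicate 2 of VC+, VC- and D0, and 54.2%, 47.1% and 54.5% in replicate 1. The Dcn share was 10.3% to 15.5% in the replicate 2 libraries and 4.23% to 4.70% in those of replicate 1.

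**Figure D4:**
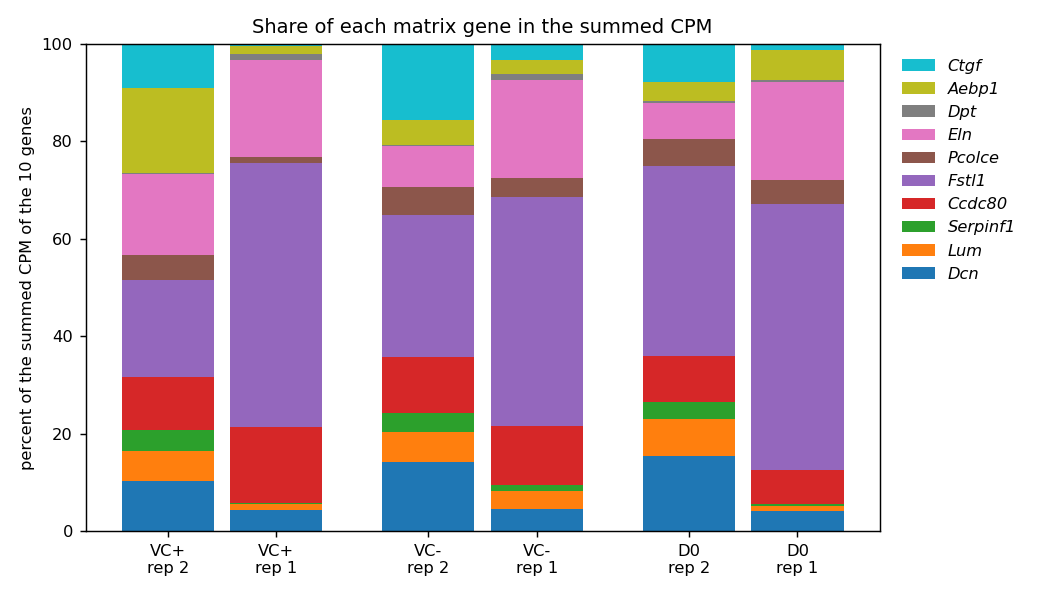
Share of each matrix gene in the summed CPM of the 10 genes (percent, stacked to 100), 1 bar a library, VC+, VC- and D0 from left to right with replicate 2 before replicate 1. Fstl1 takes 47.1% to 54.5% of the bar in replicate 1 and 19.8% to 39.1% in replicate 2, and Aebp1 is widest in replicate 2 of VC+.

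Other matrix gene families were counted for the same replicate difference, with 17.4% of all genes tested called higher and 7.70% lower. Of the other small leucine-rich proteoglycans, 4 of 9 listed were in the table and all 4 were called higher in replicate 2. Among these, Bgn (biglycan) stood at 314 and 11.3 CPM in replicates 2 and 1 of VC+, 429 and 11.9 CPM in VC-, and 499 and 6.05 CPM in D0. Of the elastic fibre and microfibril genes, 15 of 18 listed were tested, 10 were called higher in replicate 2 and 1 lower. Emilin1 was higher by 1.71 (SE 0.24, adjusted p 0.0123, limma), while Ltbp3 did not pass (0.39, SE 0.28, adjusted p 0.341). Of the CCN genes related to Ctgf, 4 of 5 listed were tested and all 4 were called higher, Cyr61 by 3.30 (SE 0.23). Of the genes counted, 1 proteoglycan (Ogn), 3 elastic fibre genes and 2 CCN genes passed the filter only with the help of replicate 2, so their difference was given by the filter.

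Procollagen processing genes, the SPARC family and the collagens were counted in the same way. Of the procollagen processing genes 6 of 8 listed were tested and 2 were called higher in replicate 2, against 17.4% of all genes. Among the 6, Adamts2 alone passed the filter only with the help of replicate 2. Serpinh1, a collagen chaperone, was higher by 2.72 (SE 0.21). Bmp1, the procollagen C-proteinase that Pcolce assists, differed by 0.09 (SE 0.22, adjusted p 0.789, limma), with 243 and 318 CPM in VC+, 259.9 and 241 CPM in VC-, and 452 and 313 CPM in D0. Of the 7 SPARC family genes, 2 were called higher and 1 lower, counts near the shares over all genes (17.4% and 7.70%). Sparc was higher by 1.72 (SE 0.41) and Smoc1 lower, by a log2 difference of -1.48 (SE 0.22). Of the fibrillar and type VI collagens 6 of 9 listed were tested and 5 were called higher. Col1a1 stood at 1759 and 49.9 CPM in VC+, 2969 and 115 CPM in VC-, and 5968 and 39.1 CPM in D0.

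TGF beta signalling acts upstream of several of these matrix genes in fibroblasts. Of the 6 TGF beta ligands and receptors 4 were called higher in replicate 2, among them Tgfbr2, by 3.89 (SE 0.33), and Tgfb2, by 2.13 (SE 0.42). Of the YAP and TGF beta targets 8 of 9 listed were tested. Of these 5 were called higher and 1 lower, against 17.4% and 7.70% of all genes tested. The lower gene was Amotl2, at 109 and 183 CPM in VC+, 120.1 and 236 CPM in VC-, and 74.0 and 97.6 CPM in D0, replicate 2 before replicate 1. Between VC+ and VC- limma called 0 genes of each of these lists, and the list medians lay between -0.73 for the collagens and 0.11 for the proteoglycans. With the replicate block DESeq2 called 0.263% of all genes. Of the genes in these lists it called 1, Col5a3, lower in VC+ (log2 difference -1.54, adjusted p 0.000485). It stood at 49.7 CPM in VC+ and 125 CPM in VC- of replicate 2, and at 43.7 and 149 CPM in replicate 1.

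Markers of some cell types were higher in replicate 2 with the matrix genes, and those of others lower. Of 20 listed markers of fibroblasts and meninges, 19 were tested and 13 were called higher in replicate 2, 0 lower. Over all genes tested 17.4% were called higher and 7.70% lower. Of the 19 markers, 9 passed the filter only with the help of replicate 2. The summed level of the 19 was 1821 and 729.7 CPM in replicates 2 and 1 of VC+, 2378 and 819.6 CPM in VC-, and 2455 and 779 CPM in D0. Pdgfra and Igfbp2 held the larger part of the replicate 1 sums. In replicate 1 of VC+, VC- and D0, Pdgfra stood at 498, 539 and 53.2 CPM and Igfbp2 at 123, 222 and 699 CPM. Foxc2, Slc22a6, Twist2, Foxd1 and Ptgds were at 0 in 1 or more replicate 1 libraries, and Ptgds also in replicate 2 of D0. Pdgfra, which oligodendrocyte precursors also express, did not pass (0.13, SE 0.57, adjusted p 0.875, limma). Microglia and macrophage markers, of which 11 of 12 passed the filter only with the help of replicate 2 so that their call count carries no weight, had sums of 646 and 5.26 CPM in VC+, 828 and 4.77 CPM in VC-, and 322 and 5.30 CPM in D0, and 3 to 8 of the 12 were at 0 in each replicate 1 library. All 8 oligodendrocyte lineage markers were called lower, against 7.70% of all genes tested. Their sums were 575 and 8320.3 CPM in VC+, 728 and 11854 CPM in VC-, and 549.6 and 2082 CPM in D0. Sequencing depth also followed the replicate, with 13184601, 11210514 and 10299321 listed reads in replicate 2 of VC+, VC- and D0 and 6641721, 5372983 and 4811094 in replicate 1. The part of cell make-up, day label or depth in the values of the matrix genes was not tested.

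**Figure D5:**
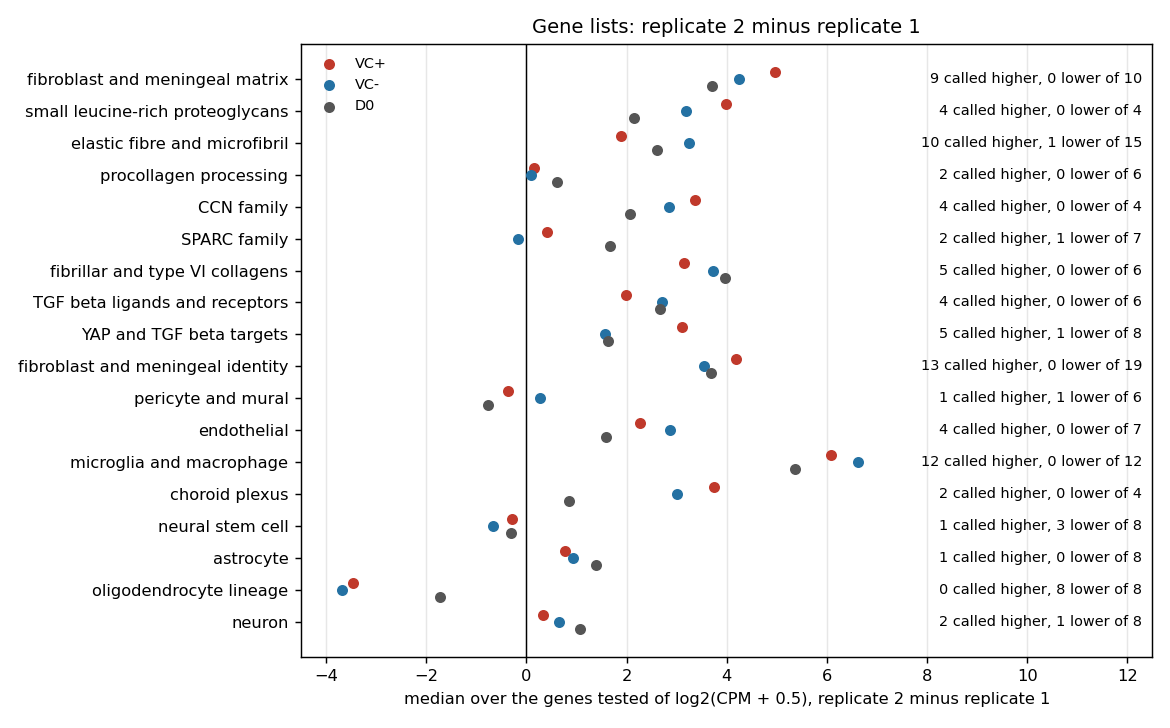
Median over the tested genes of each list of the difference in log2(CPM + 0.5) between replicate 2 and replicate 1 (x axis), with 1 point each for VC+, VC- and D0, and the counts called by limma at the right. The matrix genes (medians 4.96, 4.24 and 3.70) and the microglia markers lie far to the right of 0, and the oligodendrocyte markers to the left. The fibroblast identity markers (4.17, 3.55 and 3.69) and the collagens (3.15, 3.73 and 3.96) also lie far to the right. Of these lists, 11 of 12 microglia and 9 of 19 fibroblast identity markers passed the filter only with replicate 2.

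The neural identity of the cultures was present in all libraries. The 8 neural stem cell markers, among them Sox2, Fabp7 and Vim, were above 0 in every library, with sums of 5023 and 3288 CPM in VC+, 4522 and 4064 CPM in VC-, and 4784 and 3972 CPM in D0. Vim, which mesenchymal cells also express, set the direction of these sums. Without it the other 7 summed to 1093 and 2728 CPM in VC+, 1039.6 and 2951 CPM in VC-, and 1414 and 2668 CPM in D0, lower in replicate 2 in every group. Of the 8 markers 1 was called higher in replicate 2 and 3 lower, against 17.4% and 7.70% of all genes tested. The 10 matrix genes were thus measured in libraries in which Sox2 stood at 332 and 455 CPM in VC+, 343 and 452 CPM in VC-, and 337 and 363 CPM in D0.

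The genes most alike to the matrix set were sought among 9691 genes outside all lists with a mean of at least 5 CPM. Likeness was the root mean square difference, over the 6 libraries, between a gene's centred log2(CPM + 0.5) values and the mean of the 10 matrix genes. The 6 closest were Emp3 (0.20), Acvrl1 (0.25), Lrrc32 (0.30), Sned1 (0.30), Synpo (0.30) and Adcy7 (0.31). Within the set Pcolce (0.45) and Ccdc80 (0.48) were closest to the mean and Ctgf (1.21) and Dpt (1.66) farthest from it. Sned1, a secreted matrix protein, stood at 102 and 3.25 CPM in replicates 2 and 1 of VC+, 126 and 4.88 CPM in VC-, and 97.2 and 6.81 CPM in D0. Lrrc32, which tethers latent TGF beta at the cell surface, stood at 10.6 and 0.0957 CPM in VC+, 17.6 and 0.581 CPM in VC-, and 27.7 and 0.883 CPM in D0.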

How the data were processed

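RNA-seq of 6 libraries was analysed from 1 deposited table of CPM per gene. The authors scaled read counts to CPM; per the submitters' processing notes STAR 2.5.1, edgeR 3.12.1 and the rn5 build were among the tools used, with no roles given, and the read counter, annotation and strand setting are not given in the sources used here. Per the labels' protocols, libraries were made with a TruSeq RNA kit. Dividing each deposited CPM value by its library's smallest step gave a whole number of reads for 100% of values, within a relative tolerance of 1e-06. The genes listed account for 60.2% to 67.7% of each library's scaling total, and 1 read was worth 0.0468 to 0.126 CPM. A count of 0 allows up to 3 reads, and read intervals are exact binomial at 95%; both cover counting error only.

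The filter kept genes that reached 1 CPM in 2 or more libraries. Log2(CPM + 0.5) values were compared by two-sided limma tests with a mean-variance trend (limma 3.58.1, R 4.3.3). All 3 groups entered a single model, which left 3 residual degrees of freedom; the replicate term was tested in a fit with group and replicate (2 residual degrees of freedom). The pseudocount shrinks the differences of low genes. The smallest p of an exact permutation test at this group size is 0.333. VC+ and VC- libraries of 1 number share a day label, and their deviations from the group means correlated at 0.914 across genes, which are not independent. Alternatives were other pseudocounts, filters and scaling, no trend, the replicate block, count tests of the recovered reads (DESeq2 1.42.0, edgeR 4.0.16) and fits with 1 library omitted. Code was tested on simulated data. The genes and lists were chosen with earlier results of these data known. Named genes were the 10 matrix genes, up to 3 of highest mean CPM per other list, and the 6 most alike; genes at 0 or called alone or in pairs within a list were named after their values were seen.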

Additional observations from a re-analysis of the deposited data

How the results depend on the processing

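Between groups no matrix gene was called by limma under any alternative, and directions depended on which libraries were used, since the replicate difference enters when a library is left out. Leaving out each library in turn, the median log2 difference of the 10 genes ran from -2.82 to 1.96 for VC+ against VC-, from -3.37 to 1.51 for VC+ against D0 and from -2.40 to 1.57 for VC- against D0. For single genes the ranges were -3.00 to 2.17 for Dcn, -3.49 to 2.01 for Lum, -3.56 to 2.42 for Serpinf1, -1.77 to 1.80 for Ccdc80, -1.81 to 1.19 for Fstl1, -3.43 to 1.76 for Pcolce, -1.34 to 2.01 for Eln, -2.86 to 3.72 for Aebp1, -5.07 to 1.97 for Ctgf for VC+ against VC-, where Dpt alone kept its sign (0.039 to 0.98); -3.59 to 1.65 for Dcn, -3.69 to 2.29 for Lum, -3.39 to 2.58 for Serpinf1, -1.96 to 1.88 for Ccdc80, -2.70 to 0.27 for Fstl1, -4.12 to 1.07 for Pcolce, -1.83 to 1.51 for Eln, -1.49 to 0.81 for Dpt, -3.68 to 2.90 for Aebp1, -4.53 to 2.51 for Ctgf for VC+ against D0; and -3.18 to 2.06 for Dcn, -2.95 to 3.03 for Lum, -2.72 to 3.05 for Serpinf1, -1.97 to 1.87 for Ccdc80, -2.41 to 0.60 for Fstl1, -2.77 to 1.40 for Pcolce, -1.71 to 0.72 for Eln, -2.00 to 0.30 for Dpt, -2.99 to 1.33 for Aebp1, -2.40 to 3.49 for Ctgf for VC- against D0. Without such omissions, directions turned for Ccdc80 in VC+ against VC- (-0.19 in edgeR and -0.19 in DESeq2), for Eln (0.35 and 0.32) and Aebp1 (1.38 and 1.36) in VC+ against D0, and in VC- against D0 for Lum (-0.70 and -0.73, and -0.091 with a pseudocount of 2) and Serpinf1 (-0.20 and -0.24); the cause was not tested. Medians that moved by more than the SD of the replicate sets' medians included -0.70 for VC+ against D0 with at least 5 CPM in 2 libraries. They also included -0.36 and -0.39 for VC- against D0 in edgeR and DESeq2. For VC+ against VC- the medians were -0.21 and -0.20 in edgeR and DESeq2, against -0.36 in limma, a shift within that SD.

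With the replicate block limma called 0 genes in each of the 3 comparisons, and edgeR without it 0. DESeq2 called 6, 133 and 63 genes for VC+ against VC-, VC+ against D0 and VC- against D0, and 32, 768 and 455 with the replicate block. With that block it called 3 matrix genes lower in VC+ than in D0, Dcn (adjusted p 0.0187), Fstl1 (0.00743) and Pcolce (0.0490). Of all genes it called 2.90% lower there, and 6.43% in either direction. The median of the set in that fit was -0.71. VC+ or VC- and D0 libraries share only a replicate number; their deviations correlated at 0.688 and 0.730 across genes, and 2 pairs are too few to check the pairing. The block changed no other call of a matrix gene. For replicate 2 against replicate 1, leaving out a library gave 0 to 5098 genes called, 0 to 9 matrix genes called and a median of 3.78 to 4.80; a fit with 1 library fewer keeps fewer degrees of freedom. No matrix gene changed direction there under any alternative. Dpt, at 7 to 96 reads a library, and the replicate 1 values of Serpinf1 and Ctgf are limited by depth.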

Other observations

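Vessel and choroid plexus markers were also unequal between replicates. Over all genes tested 17.4% were called higher in replicate 2 and 7.70% lower. Of 9 listed endothelial markers 7 were tested and 4 were called higher in replicate 2 (limma, adjusted p under 0.05), though 5 of the 7 passed the filter on low values only with the help of replicate 2, with sums over the 8 present of 57.7 and 8.23 CPM in replicates 2 and 1 of VC+, 32.3 and 5.46 CPM in VC-, and 20.4 and 6.43 CPM in D0. Cdh5, the cadherin of endothelial junctions, was at 11.8, 5.91 and 1.12 CPM in replicate 2 of VC+, VC- and D0 and at 0 in all 3 replicate 1 libraries. Of 5 listed choroid plexus markers 4 were tested and 2 were called higher, 3 of the 4 having passed only with replicate 2. Clic6 stood at 76.7 and 0.0957 CPM in VC+, 30.9 and 0.581 CPM in VC-, and 25.2 and 0.126 CPM in D0. Kcne2 was lower in replicate 2 in all 3 groups, at 4.26 and 6.70 CPM in VC+, 2.74 and 4.19 CPM in VC-, and 2.17 and 2.77 CPM in D0, and was not called (log2 difference -0.47, adjusted p 0.222, limma). Pericyte and mural markers were not uniformly higher: of 6 tested, 1 was called higher and 1 lower in replicate 2, and Cspg4, which oligodendrocyte precursors also express, stood at 21.3 and 101 CPM in VC+, 14.7 and 62.1 CPM in VC-, and 59.0 and 175 CPM in D0.

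Igf2, a growth factor gene of meningeal cells, did not follow the matrix genes across groups. It stood at 635 and 4.69 CPM in replicates 2 and 1 of VC+, 876 and 16.5 CPM in VC-, and 61.2 and 4.79 CPM in D0, so in replicate 2 it was higher in both differentiated groups than in stem cells, where the summed level of the 10 matrix genes was 1269, 1425 and 1974 CPM. No difference between groups was called for Igf2 (limma), and none was tested within a replicate.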
